A study of Homo sapiens with 6 samples.

Results

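The transglutaminase genes examined here are TGM1, TGM2, TGM3, TGM4, TGM5 and F13A1. They were found by gene symbol and make up 6 of the 16617 genes in the authors' deposited table. The set was selected on the deposited average TPM and read counts, because TGM2 differs between the groups in them, so the difference in TGM2 is given as a description and supports nothing by itself. RNA was sequenced in T3M4 cells, a human line established from pancreatic ductal adenocarcinoma and grown in DMEM with fetal bovine serum. There were 3 sgControl libraries, whose genotype is labelled WT, and 3 sgMETTL13 libraries, whose genotype is labelled METTL13 knockdown. Both groups carry a guide RNA, and the series text says that they matched the treatment used for protein profiling; the labels do not say whether a group is 1 clone or a pool of cells.

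Transglutaminases join the side chain of a glutamine in one protein to a lysine in another and so make bonds that proteases do not readily cut. All need calcium for this. TGM2, or tissue transglutaminase, is the widespread member: it also binds and hydrolyses GTP, and outside the cell it holds fibronectin together with integrins and heparan sulfate chains. It is known in pancreatic cancer for high expression in tumour cells and for crosslinking the surrounding matrix. TGM1, TGM3 and TGM5 build the cornified envelope of stratified epithelia, TGM4 is a prostate enzyme of seminal fluid, and F13A1 encodes the catalytic chain of coagulation factor XIII, which stabilises fibrin.

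The table gives, for each gene, the authors' average over the libraries of a group and the authors' comparison of sgMETTL13 with sgControl. The value of each library is not analysed here, so whether single libraries of the groups overlap cannot be stated. A gene is called when its deposited q-value is under 0.05. An implied standard error was obtained for each gene by dividing the absolute log2 fold change by the normal quantile of the deposited p-value, and intervals are implied 95% intervals from it. These errors come from the authors' p-values, so they are not a spread measured between the libraries. The labels do not say whether the libraries of a group came from separate cultures, so the errors cannot be read as a spread between cultures. Over all genes the average read counts, which are estimated counts, gave totals of 15240866 (sgControl) and 15247500 (sgMETTL13) per library. The targeted gene METTL13 went from 39.9 to 5.63 TPM (a level per transcript length, scaled to a fixed total per library) in the authors' deposited table.

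The line carried the transcripts of a ductal epithelial cell. Summed over 8 epithelial markers, among them KRT8, KRT18 and KRT19, the authors' deposited table gives 4903 TPM in sgControl and 4736 in sgMETTL13, and 1 of the 8, the membrane mucin MUC1, was called, with a log2 fold change of -0.46. Markers of cells known for the other transglutaminases were scarce in both groups. Of 4 platelet and megakaryocyte markers 2 were measured, PPBP and ITGA2B, with sums of 0.163 TPM in sgControl and 0.237 in sgMETTL13 by the authors' deposited table. Of 5 terminal keratinocyte markers 3 were measured, with sums of 6.22 and 6.05 TPM, nearly all from KRT10, by the authors' deposited table. Of 6 leukocyte markers 3 were measured, CD68, CD14 and LYZ, led by the lysosomal gene CD68 at 40.9 and 44.1 TPM, and all 6 fibroblast markers were measured, led by COL1A1 at 14.0 and 14.2 TPM, in the authors' deposited table. None of these platelet, keratinocyte, leukocyte and fibroblast markers was called, and 1, CD68, had an unadjusted p under 0.05 (DESeq2 is among the tools in the submitters' notes).

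TGM2 was the main transglutaminase transcript of these cells, and its level was lower in sgMETTL13, at 0.51 of the control. In the authors' deposited table TGM2 (Entrez gene 7052) averaged 65.5 TPM in sgControl against 31.7 in sgMETTL13, a loss of 33.8 TPM. The averages of its estimated reads were 1945.67 and 957.33 per library in the authors' deposited table. The deposited log2 fold change was -0.97 with an implied standard error of 0.081 and an interval from -1.13 to -0.81, so that 51.0% of the control level was left (interval 45.7% to 56.9%). Among all genes ordered by TPM, TGM2 stood at place 2424 in sgControl and at place 4217 in sgMETTL13. In bulk RNA, fewer cells with the transcript and less transcript per cell cannot be told apart. TGM2 is a protein-coding gene on the minus strand of chromosome 20, from 38127387 to 38166578 (GRCh38, GENCODE 29).

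The error behind this value was somewhat above that of genes with as many reads. Among the 1059 genes whose mean read count lay within 0.8 to 1.25 times that of TGM2, the median implied standard error was 0.0735, and 84.2% of these genes had a smaller error than TGM2. In that set 10.6% of the genes were called in either direction.

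TGM1, the membrane-anchored keratinocyte enzyme, was the only other member at an appreciable level. In the authors' deposited table TGM1 (Entrez gene 7051, chromosome 14, 24249114 to 24264432, minus strand) averaged 12.7 TPM in sgControl and 9.20 in sgMETTL13, a difference of 3.51 TPM. Its estimated reads averaged 267.00 and 196.33 per library in the authors' deposited table. The deposited log2 fold change was -0.39 (implied standard error 0.135, interval -0.66 to -0.13), with a deposited q-value of 0.078, so TGM1 was not called. That outcome turns on the setting. The adjusted p was 0.0424 when the adjustment was made over the more abundant genes only (mean read count of at least 205, the median). When a trend of fold change with GC content and transcript length was removed, the log2 fold change itself moved to -0.47 and the adjusted p was 0.0234. The adjusted p lay within a range of 0.0234 to 1 over the settings run. Whether TGM1 and TGM2 differ in fold change was not tested. TGM2 stood 5.15 times above TGM1 in TPM in sgControl and 3.44 times above it in sgMETTL13.

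**Figure D1:**
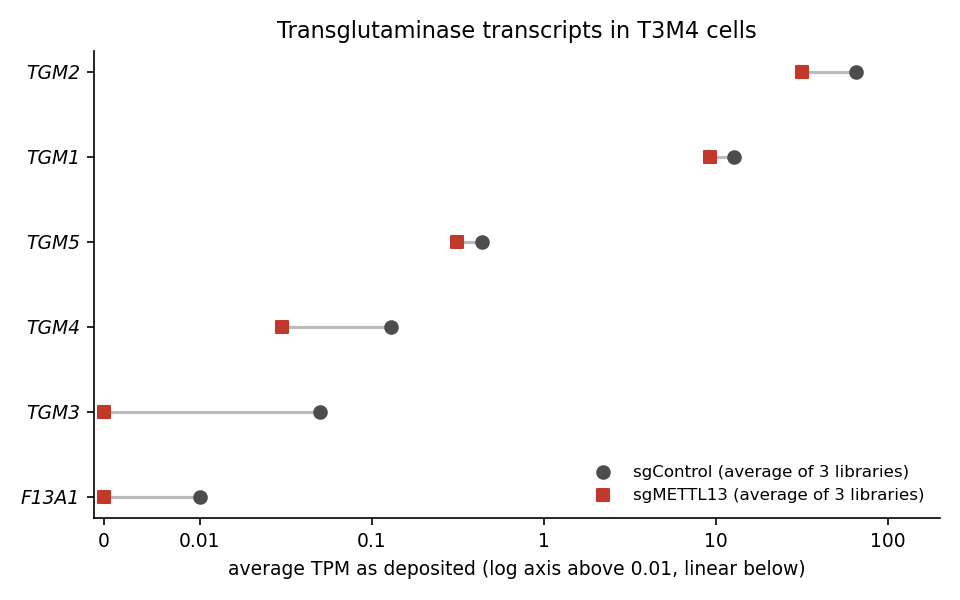
Average TPM of each transglutaminase gene as deposited, with sgControl as dark circles and sgMETTL13 as red squares, each the average of 3 libraries and without error bars because the table holds averages only. The axis is logarithmic above 0.01 TPM and linear below; TGM2 (65.5 and 31.7 TPM) and TGM1 (12.7 and 9.20 TPM) stand apart from the other 4 genes, which all lie under 1 TPM.

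The remaining 4 genes had under 10 reads per library in both groups, too few to show a change of the size seen for TGM2. TGM5, an envelope enzyme of the epidermis, averaged 0.437 TPM (sgControl) and 0.313 TPM (sgMETTL13) according to the authors' deposited table. Summed over the 3 libraries of a group, that is 20 and 15 estimated reads, a ratio of 0.75 with an exact counting interval from 0.357 to 1.54. TGM4 averaged 0.13 and 0.03 TPM in the authors' deposited table, or 9 and 2 summed reads, a ratio of 0.222 (exact counting interval 0.0234 to 1.07). For TGM3, which crosslinks trichohyalin in hair follicles, there were 3 summed reads in sgControl and 0 in sgMETTL13. F13A1 had 1 summed read in sgControl and 0 in sgMETTL13. A count of 0 allows up to 3 reads, so no fold is given for TGM3 and F13A1. These intervals and limits cover counting error only.

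The authors' deposited table gives log2 fold changes of -0.37 for TGM5 (interval -1.94 to 1.21) and -2.11 for TGM4 (-5.26 to 1.04). Both intervals contain 0 and also the value of TGM2. TGM5 lies on chromosome 15 (43232595 to 43266857, minus strand), TGM4 on chromosome 3 (44874608 to 44914990, plus strand), TGM3 on chromosome 20 (2296001 to 2341078, plus strand) and F13A1 on chromosome 6 (6144085 to 6321013, minus strand), all by GENCODE 29 on GRCh38.

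Taken as a family, the 6 genes summed to 78.8 TPM in sgControl and 41.2 in sgMETTL13. TGM2 supplied 83.1% of the sum in sgControl and 76.8% in sgMETTL13, TGM1 16.1% and 22.3%, and the other 4 genes together 0.795% and 0.833%. Of the difference in the family sum, 33.8 TPM lay in TGM2 and 3.51 in TGM1. All 6 averages were lower in sgMETTL13, but the authors' deposited table calls 1 of the 6 genes, TGM2, lower, and none higher. The table calls 3.80% of all its genes, 1.08% (179 genes) lower and 2.73% (453) higher, or 172 lower and 271 higher after removal of the trend with GC content and length; since TGM2 was picked for its difference, nothing is read from the comparison of these shares.

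**Figure D2:**
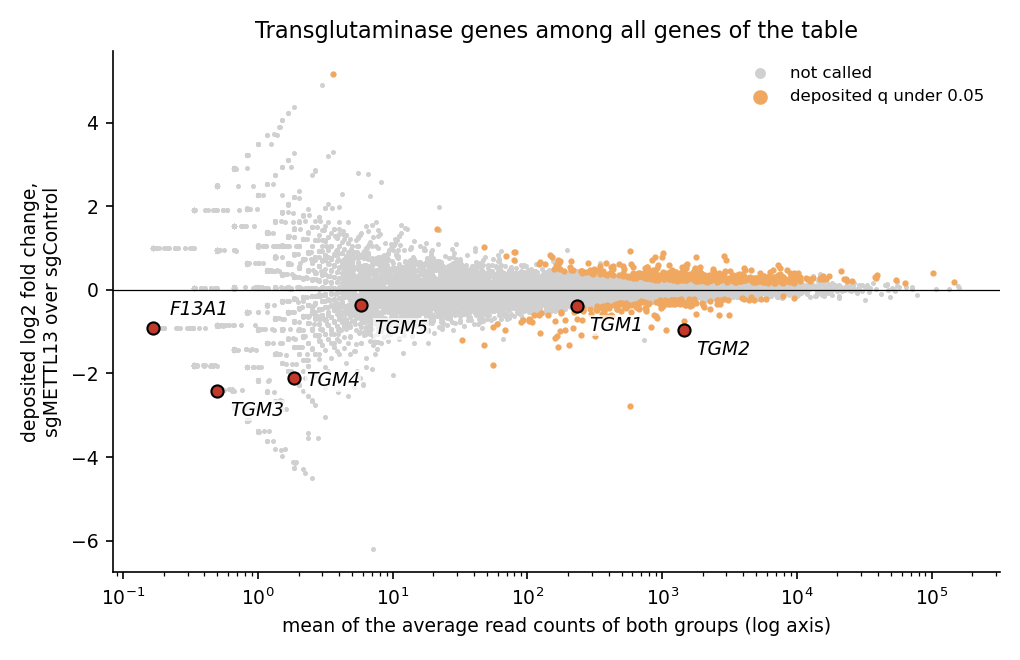
Deposited log2 fold change of sgMETTL13 over sgControl (vertical axis) against the mean read count of both groups (horizontal log axis) for all 16617 genes, with called genes in orange and the 6 transglutaminase genes as labelled red points. TGM2 lies below the cloud of genes with as many reads, TGM1 lies at its lower edge, and the other 4 genes lie where counts are low and fold changes spread widely; for TGM3 and F13A1, with 0 reads in sgMETTL13, the plotted value depends on how the authors treated a count of 0.

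The units of the table are scalings of the same reads, so their agreement on TGM2 adds no support. On the log2 scale the ratio of the average read counts was -1.02, that of TPM -1.05 and that of FPKM (also per length, scaled to the reads of the library) -1.02. The reads per unit of TPM compare the length of transcript to which the reads were assigned. For TGM2 they were 29.7 in sgControl and 30.2 in sgMETTL13, a log2 ratio of 0.0243, where the median of the 2241 genes with at least as many reads was 0.0220 (central 95% from -0.0015 to 0.0476). The transcript length implied by its reads and FPKM was 3819 nucleotides in sgControl and 3821 in sgMETTL13. For TGM1 it was 2699 in both. GENCODE 29 lists 6 TGM2 transcripts, from 693 to 5070 nucleotides, and which of them were read is not shown by averages per gene.

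The genes beside TGM2 on chromosome 20 differed less. RPRD1B, a regulator of the RNA polymerase II tail that overlaps the 3′ end of TGM2 on the opposite strand by 394 bases, had 46.9 and 43.0 TPM and a log2 fold change of -0.04 (interval -0.18 to 0.10) in the authors' deposited table. No source used here says whether the authors' counting used strand, so reads in that overlap cannot be told apart. TTI1, a scaffold for the maturation of PI3K-related kinases, is the next measured gene on that side and had 37.8 and 31.7 TPM and a log2 fold change of -0.18 (-0.33 to -0.03) with a deposited q-value of 0.233 in the authors' deposited table. On the other side KIAA1755 had 0.273 and 0.223 TPM and LBP, the lipopolysaccharide-binding protein gene, 0.0233 and 0.0467 TPM in the authors' deposited table, too few reads to compare. None of the 8 measured genes within 500000 bases of TGM2 was called, and 1, TTI1, had an unadjusted p under 0.05.

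**Figure D3:**
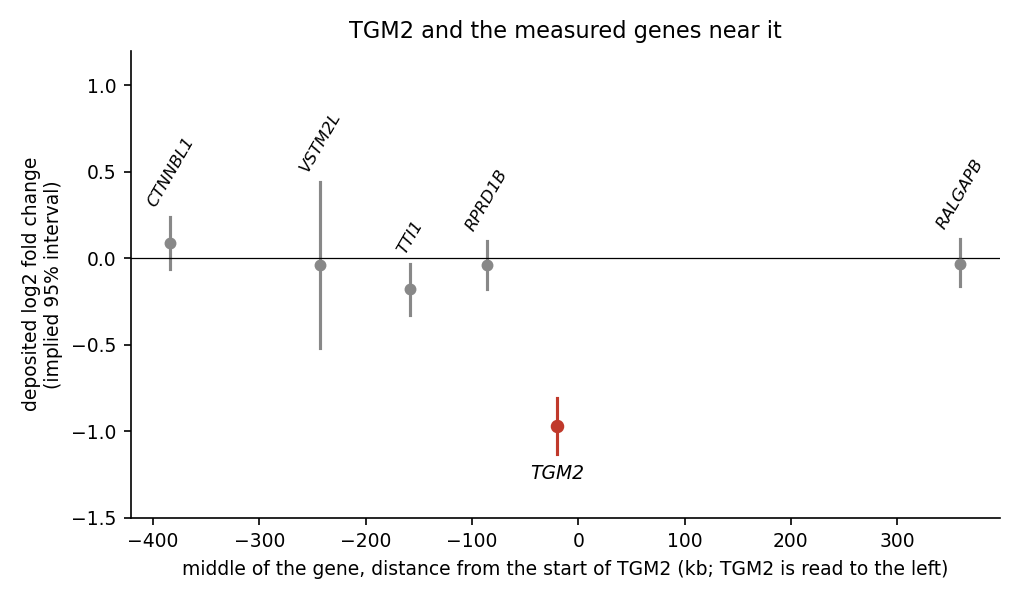
Deposited log2 fold change with its implied 95% interval (vertical axis) for TGM2 in red and, in grey, the measured genes within 500000 bases that averaged at least 30 reads, placed by the distance of the middle of each gene from the start of TGM2 in kb (horizontal axis). The interval of TGM2, from -1.13 to -0.81, lies below those of the 5 grey genes, which are centred between -0.18 and 0.09.

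Among abundant genes, those whose pair of group averages came nearest to that of TGM2 were MX1, C3, SAMD9, MUC1 and LRP8. Nearness was the distance in log2 TPM over the 2 group averages, which says nothing beyond a like level in both groups. MX1, an interferon-induced antiviral GTPase, was nearest at a distance of 0.0465, with 66.6 and 32.6 TPM in the authors' deposited table; its implied standard error of 0.225 was larger than that of TGM2. The complement component C3 followed at 0.284 (55.2 and 35.0 TPM), then the antiviral factor SAMD9 at 0.301 (61.6 and 38.7 TPM), MUC1 at 0.400 (59.4 and 41.1 TPM) and the lipoprotein receptor LRP8 at 0.432 (53.1 and 39.2 TPM) in the authors' deposited table.

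Genes that work with transglutaminases were followed in 9 lists, with 105 of 123 genes measured. The authors' deposited table calls 15 of them higher and 3 lower. Of these 105 genes 58 had at least the median read count, a range in which 7.04% of all genes were called (5.21% higher and 1.83% lower), and 17 of the 58 were called (29.3%). The lists were chosen with earlier results of these data known, so this share is a description.

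At the cell surface, several partners of TGM2 were higher in sgMETTL13. Of 16 measured cell-surface partners the authors' deposited table calls 5 higher and none lower. The median log2 fold change of the 16 was 0.057, against 0.0014 over all genes and 0.0110 over genes with at least the median read count. LRP6 alone was lower at an unadjusted p under 0.05 (-0.25, interval -0.44 to -0.05) in the authors' deposited comparison and was not called. SDC4, the heparan sulfate proteoglycan syndecan-4 that binds TGM2 in complex with fibronectin, rose from 140 to 183 TPM, a log2 fold change of 0.46 (interval 0.34 to 0.57) in the authors' deposited table. ITGA5, which pairs with ITGB1 as the classical fibronectin receptor, rose from 83.6 to 99.6 TPM (0.33, interval 0.21 to 0.45) in the authors' deposited table. LRP1, an endocytic receptor that clears TGM2 from the surface, rose from 14.7 to 18.4 TPM (0.40, interval 0.26 to 0.54) by the authors' deposited table. MMP14, a membrane protease that cuts surface TGM2, and ADGRG1, an adhesion receptor that binds TGM2, stood at 0.24 and 0.23 on the log2 scale by the authors' deposited table and were also called. The last 2 lost the call when the trend with GC content and length was removed, and reads of ADGRG1 were in part divided with other genes. ITGB1, the most abundant partner, had 245 and 247 TPM and a log2 fold change of 0.09 (interval -0.02 to 0.19) and was not called in the authors' deposited table.

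In the matrix, the fibronectin transcript was lower. FN1, the fibronectin gene and the main matrix substrate of TGM2, fell from 6.38 to 4.41 TPM in the authors' deposited table. Its estimated reads averaged 388.33 and 269.33 per library, and its log2 fold change was -0.48 (interval -0.71 to -0.25) with a deposited q-value of 0.00258 in the authors' deposited table. FN1 was the 1 gene called of 9 measured matrix substrates, whose median log2 fold change was 0.005. The growth factor midkine (MDK), the most abundant of them, had 1030 and 942 TPM and a log2 fold change of -0.05 (interval -0.17 to 0.07) in the authors' deposited table. The basement membrane linker NID1 had -0.17 (-0.41 to 0.06) and the collagen COL5A1 0.01 (-0.21 to 0.22) by the authors' deposited table. Of the list, VTN, SPARC and FBN1 were under 1 TPM in both groups.

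**Figure D4:**
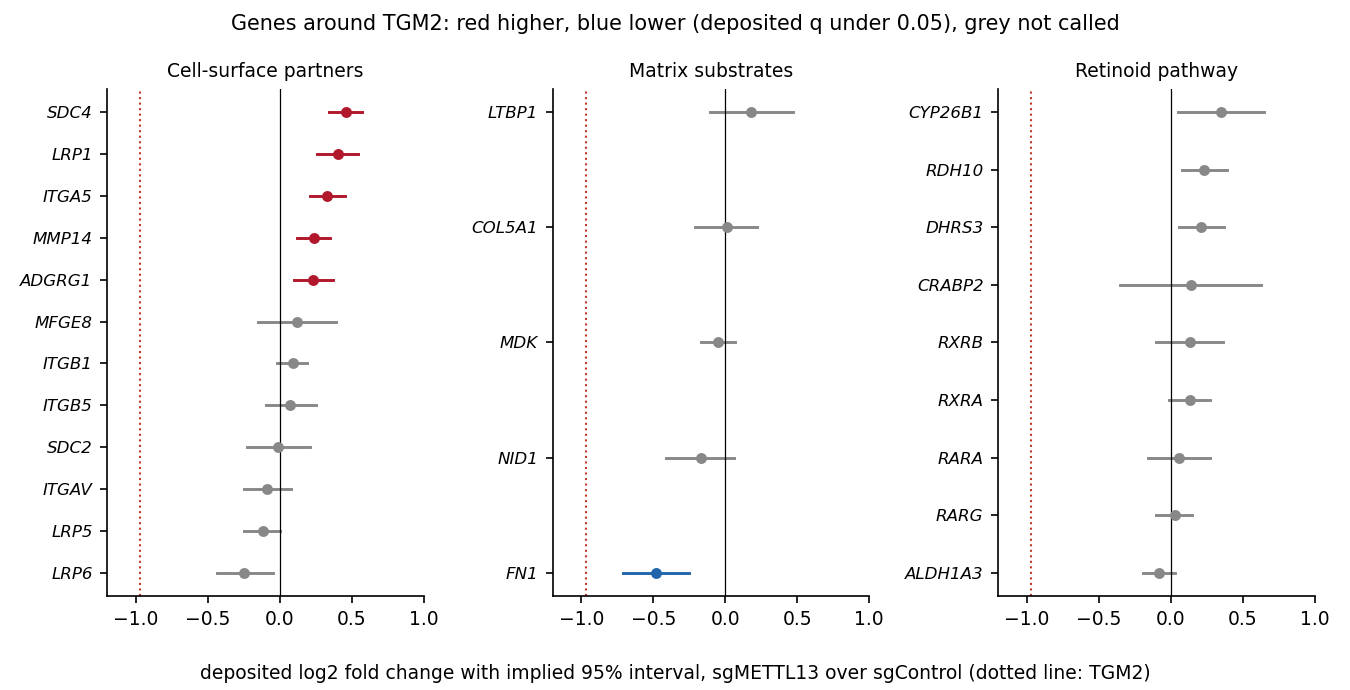
Deposited log2 fold change of sgMETTL13 over sgControl (horizontal axis) with implied 95% intervals for genes of 3 lists (cell-surface partners, matrix substrates and retinoid pathway) that averaged at least 30 reads, with called rises in red, called falls in blue and genes that were not called in grey. The dotted line marks TGM2 at -0.97; the called cell-surface partners lie between 0.23 and 0.46, FN1 at -0.48, and no gene of the retinoid list is coloured; STRA6 and RARRES3 had fewer reads and are not drawn.

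Inducers of TGM2 and their receptors went both ways. Retinoic acid is a classical inducer of TGM2, and of 14 measured genes of the retinoid pathway 0 were called by the authors' deposited table (DESeq2 is among the tools in the submitters' notes), and 5 had an unadjusted p under 0.05. The median log2 fold change of the 14 genes was 0.092. Of the 5 genes, 2 with few reads had differences about as large as that of TGM2 in the authors' deposited table: the retinol uptake receptor STRA6 had 1.38 and 0.61 TPM (-1.04, interval -1.89 to -0.18, q-value 0.217) and the retinoid-responsive gene RARRES3 4.58 and 2.22 TPM (-0.97, interval -1.86 to -0.08, q-value 0.321). The other 3 were higher in the authors' deposited table, namely the retinol dehydrogenase RDH10 (0.23, interval 0.08 to 0.39, q-value 0.0721), the retinal reductase DHRS3 (0.21, interval 0.06 to 0.37) and the retinoic acid hydroxylase CYP26B1 (0.35, interval 0.05 to 0.65). RDH10 was called at a q-value under 0.1 and with the adjustment over the more abundant genes. The receptors RARG and RXRA had 0.03 (interval -0.10 to 0.15) and 0.13 (-0.01 to 0.27), and the retinoic acid synthesis enzyme ALDH1A3, the most abundant member at 276 and 248 TPM, had -0.08 (-0.19 to 0.03) in the authors' deposited table. Of 20 other inducers and receptors the authors' deposited table calls 4 higher and 2 lower, with a median of 0.081.

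Among them 2 TGF-beta ligands went in opposite directions. TGFB1, which induces TGM2 in many cells, rose from 189 to 224 TPM (0.38, interval 0.25 to 0.51), while TGFB2 fell from 13.7 to 9.97 TPM (-0.38, interval -0.57 to -0.20) in the authors' deposited table. The NF-kB subunit RELA (0.26), the interferon-gamma receptor chain IFNGR2 (0.31) and the cytokine IL1B (0.21) were called higher in the authors' deposited table. After removal of the GC and length trend RELA, IFNGR2 and IL1B lost the call and SMAD2 gained it, while TGFB1 and TGFB2 kept theirs. HIF1A, the hypoxia factor, was the most abundant member of the list and was not called (0.05, interval -0.05 to 0.16) in the authors' deposited table.

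Inside the cell few substrates and regulators of TGM2 were called. Of 9 intracellular substrates VIM, the intermediate filament vimentin, rose from 9.46 to 12.7 TPM (0.50, interval 0.19 to 0.81) in the authors' deposited table and lost the call with the trend removed. GSTP1 (0.11, interval 0.01 to 0.21), ANXA1 (0.13, interval 0.01 to 0.25) and the small GTPase RHOA (0.05, interval -0.08 to 0.18) were far more abundant and were not called in the authors' deposited table. Of these 9 substrates 4 had an unadjusted p under 0.05 in the authors' deposited comparison, all of them higher (VIM, GSTP1, ANXA1 and NFKBIA). With the trend removed GSTP1 stood at -0.01 and NFKBIA moved from 0.15 to 0.08, while ANXA1 (0.14) and VIM (0.49) changed little. Of 8 genes for partners in the GTPase cycle of TGM2 and in its redox control 0 were called by the authors' deposited table (with DESeq2 in the submitters' notes), and 0 had an unadjusted p under 0.05. Among these, TXN, the thioredoxin that reduces and so activates extracellular TGM2, had 0.06 (interval -0.07 to 0.20), PDIA3, which oxidises and inactivates it, 0.00 (interval -0.11 to 0.11), and the calcium-binding chaperone CALR 0.06 (interval -0.04 to 0.16) in the authors' deposited table. Of 6 genes with a related fold that are not among the 6 transglutaminases, 2 were measured: NGLY1, which removes glycans from misfolded proteins, had -0.09 (interval -0.36 to 0.17) and the centriole gene CEP76 -0.02 (interval -0.54 to 0.50) in the authors' deposited table.

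Some substrates of the epidermal transglutaminases were higher in sgMETTL13. Of 21 measured cornified envelope substrates the authors' deposited table calls 4 higher and none lower, with a median log2 fold change of 0.112, and all 4 kept the call with the trend removed. SPRR1B, a small proline-rich envelope precursor, rose from 176 to 309 TPM (0.89, interval 0.72 to 1.06), and PI3, the elastase inhibitor elafin that carries transglutaminase sites, from 173 to 242 TPM (0.55, interval 0.37 to 0.73) in the authors' deposited table. The calcium-binding proteins S100A11 and S100A10 rose from 3545 to 4235 and from 429 to 526 TPM (0.33 and 0.37) in the authors' deposited table. The desmosomal plaque gene DSP was abundant and was not called (0.03, interval -0.07 to 0.13) in the authors' deposited table. IVL and FLG, also envelope genes of this list, were under 1 TPM in both groups. Reads of SPRR1B were in part divided with related genes.

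Of the fibrin-related genes 6 of 9 were measured and 5 of these were under 1 TPM in both groups. SERPINB2, the plasminogen activator inhibitor that transglutaminases attach to fibrin, was the exception and rose from 357 to 425 TPM (0.32, interval 0.21 to 0.43) in the authors' deposited table. F5 had 0.47 TPM in both groups, and SERPINF2 0.127 and 0.0833 TPM in the authors' deposited table.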

How the data were processed

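Groups were taken from the guide RNA in the sample titles, and by the sample descriptions WT columns belong to sgControl and KD columns to sgMETTL13. RSEM 1.2.12, Bowtie2 2.2.5, HISAT2 2.0.4 and DESeq2, with builds hg38 and GRCh38.p12, are named per the submitters' processing notes; the role of each is not given in the sources that were used. Per the file headers the deposited table holds group averages of TPM, of FPKM and of read counts, and the authors' log2 ratio, p-value and q-value of KD over WT. The read counts are estimated counts (expected counts), averaged per group by the authors as deposited. No value per library was used, so the depth of each library is unknown. The deposited comparison served as the test, as the design provided. A count model, held in reserve for values per library, was not run. The members, lists and tests were chosen with earlier results of these data known. Genes named are METTL13, the 6 members, in each list the called genes (at most 6) and the 3 highest in TPM, the 5 nearest to TGM2 in level and the 2 nearest measured genes on each side of it; other genes named were chosen after their values were seen. Some genes of the lists are not reported here. Lists were matched by symbol or older symbol. Implied standard errors assume a normal test. Exact counting intervals used a conditional binomial for a ratio of summed reads, scaled by the group totals. Coordinates and transcripts are from GENCODE 29 (GRCh38), matched by Entrez ID. Alternatives were other thresholds and adjustments, centred fold changes and other units; the removal of a trend with GC content and length of the longest transcript (splines of 4 degrees of freedom, 16211 genes) was added after the data were seen. The steps were tested on simulated data. Versions were Python 3.11.15, scipy 1.17.1, numpy 2.4.6, matplotlib 3.10.9, pandas 2.3.3 and patsy 1.0.2.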

Additional observations from a re-analysis of the deposited data

How the results depend on the processing

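The log2 fold change of TGM2 was -0.97 as deposited and lay between -1.05 and -0.98 over the 6 alternatives run. These alternatives rest on the same reads for which TGM2 was chosen, so their closeness adds no support. The reads of TGM2 per unit of level were set against the median of genes with at least as many reads. That difference moved from 0.0023 to 0.0014 on the log2 scale when FPKM replaced TPM. The count of called transglutaminase genes was 1 in the deposited comparison and 2, with TGM1 added, at a q-value under 0.1, with the adjustment made over the more abundant genes only and with the GC and length trend removed. The share of TGM2 in the family sum was 87.5% in sgControl and 82.6% in sgMETTL13 when read counts replaced TPM, since counts weigh a longer transcript more. Over the 9 lists together, 15 genes higher and 3 lower became 9 and 0 under Bonferroni's adjustment; at the deposited threshold these are 453 and 179 over all genes, and 136 and 44 under Bonferroni. At a q-value under 0.01 all genes gave 305 higher and 104 lower, and centred fold changes gave 418 and 210. With the trend removed all genes gave 271 higher and 172 lower, a smaller share of higher calls than at the deposited threshold. No paired analysis was possible because the table holds group averages, and for the same reason no library could be left out and no other normalization of counts run. Depth limits TGM3, TGM4, TGM5 and F13A1, whose intervals span more than the difference seen in TGM2.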
